A study of Cucumis sativus with 18 samples.

Results

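The genes described here are those of cucumber (Cucumis sativus) whose mean expression was highest after 60 days of an ovary culture and clearly lower at every earlier time sampled. A gene was included when its mean at day 60 was at least 5 RPKM (reads per kilobase of gene, scaled to the reads that the library had assigned to genes) and its day 60 mean plus 1 was at least 2 times the highest mean plus 1 of the other 5 times. Of the 23248 genes in the files, 186 met this rule, which is 0.80%, so the limit of 200 set with the rule removed none. In ovary culture, ovaries that were never pollinated are kept on a nutrient medium, where unfertilised ovules can give rise to embryos. The libraries came from fresh unpollinated ovaries, from ovules cultured for 2 days, and from embryos cultured for 10, 20, 30 and 60 days, with 3 libraries at each time. All 18 are labelled as ovary tissue, and the series design calls the 3 of a time biological replicates. By the time labels, though, the material changed from ovaries to ovules to embryos. Time of culture and material therefore cannot be told apart in comparisons that cross these steps. Rises and falls named below are differences between such samples. The labels give no cultivar, medium, donor plant or batch, so whether the replicates came from separate plants is not known, and the p-values measure the spread between these libraries.

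As background, an embryo that forms in culture starts from a cell of the ovule, divides into a small ball of cells, forms cotyledons and the root and shoot poles, and may then mature or grow on into a plantlet. Seed embryos of cucumber store oil and protein in the cotyledons, and the cotyledons turn green once the seedling grows.  The gene IDs carry no names and 0 of the 23248 matched the RefSeq gene table of Cucumber_9930_V3, so no function, cell type or pathway is given to any gene here and the labelled tissue was not checked against marker genes. In libraries made from whole samples, more cells of a type and more RNA per cell cannot be told apart.

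The libraries held between 21.8 and 72.5 M reads assigned to genes, and the replicate 3 library was the deepest at every time. Replicate 1 of day 10 and replicate 1 of day 20 list fewer genes at exactly 1 read, 32 and 34, than the other 16 libraries, where 177 to 458 genes stood at 1 read. The day 60 libraries held 34.0, 32.5 and 72.5 M reads. The limits given below for 0 reads cover counting error only, since reads of PCR copies are not separate molecules.

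The 186 genes had modest levels at day 60, with a median of the day 60 means of 21.5 RPKM, quartiles of 9.53 and 49.8, and a range from 5.07 to 1948. Means of at least 100 RPKM were reached by 26 of them, and means of at least 500 by 4. Together they made up 3.02%, 2.98% and 3.22% of the summed RPKM of the 3 day 60 libraries, against 0.376% to 0.999% in the other 15 libraries. These values chose the genes, so the difference is a description and was not tested.

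The ratio of day 60 to the next highest time, each mean plus 1, had a median of 2.39 and reached 6.95. It lay under 2.5 for 107 genes, from 2.5 to 3 for 38, from 3 to 4 for 17 and at 4 or above for 24. Just inside the rule stood Csa6G496380, with a ratio of 2.003 and a day 60 mean of 47.8 RPKM, and Csa5G141180, with 2.005 and 8.11 RPKM. Just outside stood Csa7G290530, with 1.9995 and 7.15 RPKM, and Csa7G074910, with 1.997 and a day 60 mean of 669 RPKM against 335 at day 30. On the side of the level, Csa5G372190 entered with 5.07 RPKM and Csa4G293210 was left out with 4.94 RPKM and a ratio of 2.19. In all, 37 genes had a ratio of at least 2 but a day 60 mean under 5 RPKM. Since many genes lie close to the line, the set is one end of a continuous spread and not a separate class, as the plot of day 60 against the highest other time shows.

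**Figure D1:**
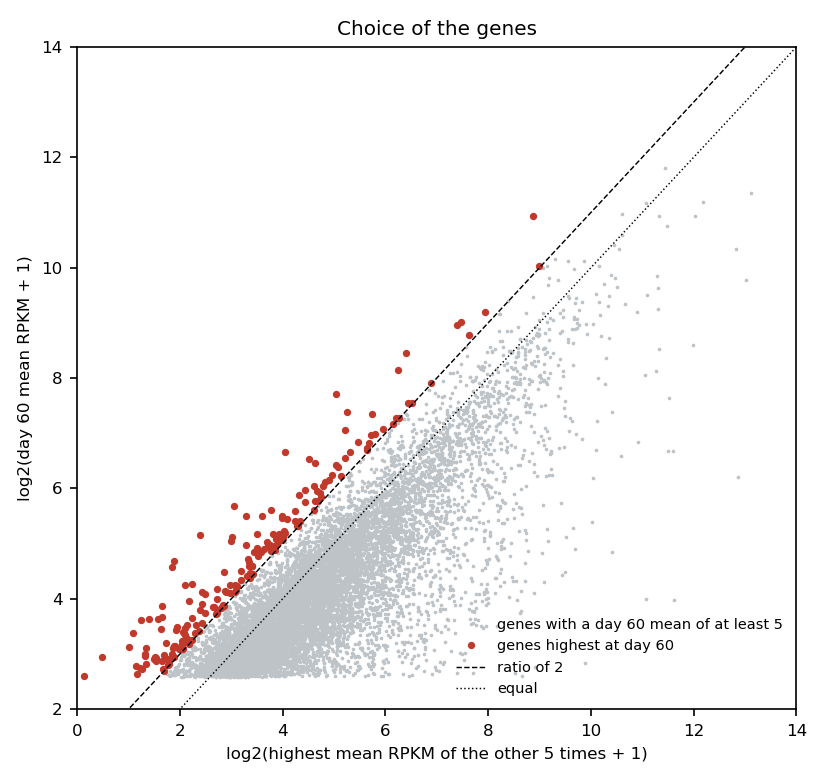
Each point is a gene with a day 60 mean of at least 5 RPKM, with log2(mean RPKM + 1) at day 60 on the vertical axis and at the highest of the other 5 times on the horizontal axis. The 186 chosen genes (red) lie on or above the dashed line, a ratio of 2, and 107 of them have a ratio under 2.5.

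For 183 of the 186 genes the 3 day 60 libraries all lay above the other 15, which the rule largely fixes. Of the 18153 genes tested, 9.6% had day 60 libraries above all others. The exceptions were Csa1G575060, Csa7G447840 and Csa5G165240. Csa1G575060 stood at 20.7 and 24.5 RPKM in replicates 1 and 2 of day 60 but at 4.45 in replicate 3, while its highest library elsewhere was at 9.79. Csa7G447840 (7.25, 8.21 and 17.1 RPKM) and Csa5G165240 (9.55, 6.84 and 20.5 RPKM) had the opposite order, with replicate 3 far above the others. In these 3 genes the day 60 libraries overlapped the others, and replicate 3 was the one that stood apart.

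The 3 genes with the highest ratios were low at all earlier times. Csa5G160210 had the highest ratio, 6.95, with 25.9, 23.6 and 24.3 RPKM in the day 60 libraries and between 0 and 3.59 RPKM, with a median of 0.447, in the other 15. Csa7G291130 stood at 39.8, 35.9 and 28.7 RPKM at day 60 and between 1.06 and 4.82 elsewhere, with a median of 2.90 and its second highest mean in fresh ovaries. Csa6G366560 stood at 21.9, 21.6 and 25.0 RPKM at day 60 and between 0.112 and 3.00 elsewhere. In all 3 genes the day 60 libraries lay above every other library.

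Csa1G568500 followed another course, with a mean that was higher at each time than at the time before. It was at 0, 0 and 0.0202 RPKM in fresh ovaries, at 0.809, 0.872 and 0.388 at day 2, at 2.46, 1.25 and 0.573 at day 10, at 7.83, 6.10 and 4.55 at day 20, at 44.6, 30.7 and 20.0 at day 30, and at 260.3, 242.3 and 122.5 at day 60. The libraries at 0 reads in fresh ovaries allow up to 0.125 and 0.128 RPKM, as 3 reads would give. From day 2 on, replicate 3 was the lowest library of this gene at each time. A mean that was higher at each of the 5 steps was found in 4 of the 186 genes and in 66 of all 18153 tested. The other 3 were Csa3G146550, Csa4G629480 and Csa5G183770, at 0.725, 1.96 and 0.142 RPKM in fresh ovaries and at 6.96, 13.97 and 5.19 RPKM at day 60.

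Csa7G440550 stood at 48.7, 53.0 and 49.4 RPKM at day 60, with at most 7.63 elsewhere, and Csa6G500540 at 95.6, 107.7 and 98.7 RPKM. The latter was nearly silent in fresh ovaries, at 0.636, 0.311 and 0.279 RPKM, and held a level of 16.7, 12.7 and 15.2 RPKM as early as day 2. Between day 2 and day 30 its means stayed from 7.78 to 15.6 RPKM, so it stood at an intermediate level at all times between fresh ovaries and day 60, with replicate 1 of day 10 the lowest of these libraries at 3.14 RPKM.

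Csa5G372190 came closest to being found at day 60 alone. It had 257, 239 and 544 reads in the day 60 libraries, which is 5.13, 4.99 and 5.09 RPKM, and 26 reads in the other 15 libraries together. In 11 of these 15 it had 0 reads, which allows levels of up to 0.0306 to 0.0934 RPKM. A mean under 1 RPKM at all 5 other times was found in 3 genes, Csa5G372190, Csa2G292240 and Csa7G041370. Csa2G292240 stood at 7.83, 8.34 and 3.90 RPKM at day 60 with at most 0.639 elsewhere, and Csa7G041370 at 9.76, 6.76 and 6.60 RPKM with at most 1.11. At the other end, 118 of the 186 genes had means of at least 1 RPKM at all other times, and 47 had means of at least 5, so most of the set was expressed throughout and higher at day 60.

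The remaining genes of the 12 highest ratios were at lower levels. Csa6G092540 stood at 14.3, 8.11 and 11.2 RPKM at day 60 and had 0 reads in the 3 day 10 libraries, which allows up to 0.0844 to 0.209 RPKM. Csa1G256790 stood at 10.2, 8.28 and 9.84 RPKM and Csa1G561410 at 11.8, 11.1 and 11.2 RPKM, and both had their second highest mean at day 30, at 1.13 and 1.62 RPKM. Csa3G516520 stood at 10.7, 15.6 and 14.6 RPKM, on 93, 129 and 270 reads, as its length was 255 bases.

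**Figure D2:**
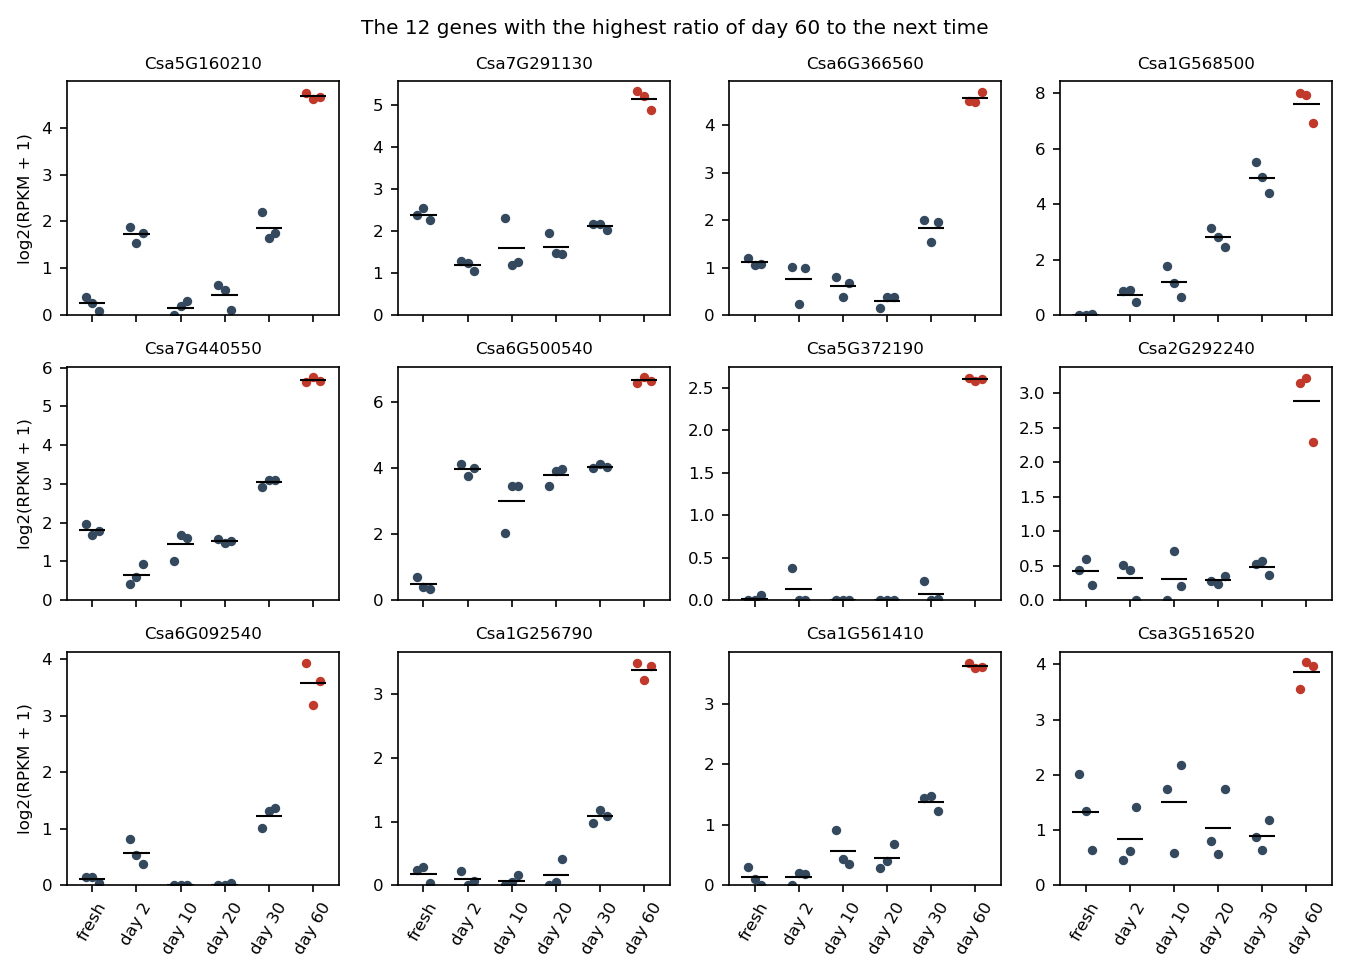
Level of the 12 genes with the highest ratio in each library, as log2(RPKM + 1) on the vertical axis, by time of culture. Points are libraries, bars are means of 3, and day 60 is in red; Csa1G568500 was higher at each time than before, while Csa5G372190 had 0 reads in 11 of the 15 earlier libraries.

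Among the most abundant genes of the set, Csa6G517220 was the highest, at 1811, 1971 and 2062 RPKM at day 60. Its other means were 426 RPKM in fresh ovaries, 49.3 at day 2, 467 at day 10, 408 at day 20 and 348 at day 30, so that day 2 stood out as a low point. Csa1G505400 stood at 1018, 851 and 1249 RPKM at day 60 and between 241.9 and 609.9 elsewhere, with a ratio of 2.04 that is close to the line. Csa1G151000 stood at 512, 531 and 722 RPKM at day 60 and at a mean of 242.8 at day 30, with 22.7 to 62.0 at the 4 earlier times. Csa3G026150, at 518.6, 499.4 and 540.7 RPKM, and Csa1G073900, at 486.5, 537.0 and 475.9, came next, followed by Csa1G063540, Csa1G051620 and Csa1G575130 with means of 439, 351 and 282 RPKM. Of these 8 genes, 6 have IDs with the digit 1, which was noticed after their values were seen.

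Before day 60, the set as a whole was low from day 2 to day 20 and higher at both ends. The median of the gene means was 4.38 RPKM in fresh ovaries, 2.57 at day 2, 2.46 at day 10, 3.25 at day 20 and 7.12 at day 30, before 21.5 at day 60. Over all genes tested, the same median stayed between 6.58 and 7.76 RPKM at all 6 times. The lowest of the 6 means was at day 2 for 74 of the genes, at day 10 for 69, at day 20 for 21, in fresh ovaries for 20 and at day 30 for 2. The second highest mean was at day 30 for 103 genes, or 55.4%, and in fresh ovaries for 55, or 29.6%, with 11 at day 20, 10 at day 2 and 7 at day 10. Among the 2664 genes with their highest mean at day 60 and at least 5 RPKM there, these shares were 46.4% for day 30 and 31.5% for fresh ovaries. The split depends on the scaling, since under median-ratio scaling of the libraries day 30 came second for 76 of the 186 and fresh ovaries for 64.

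**Figure D3:**
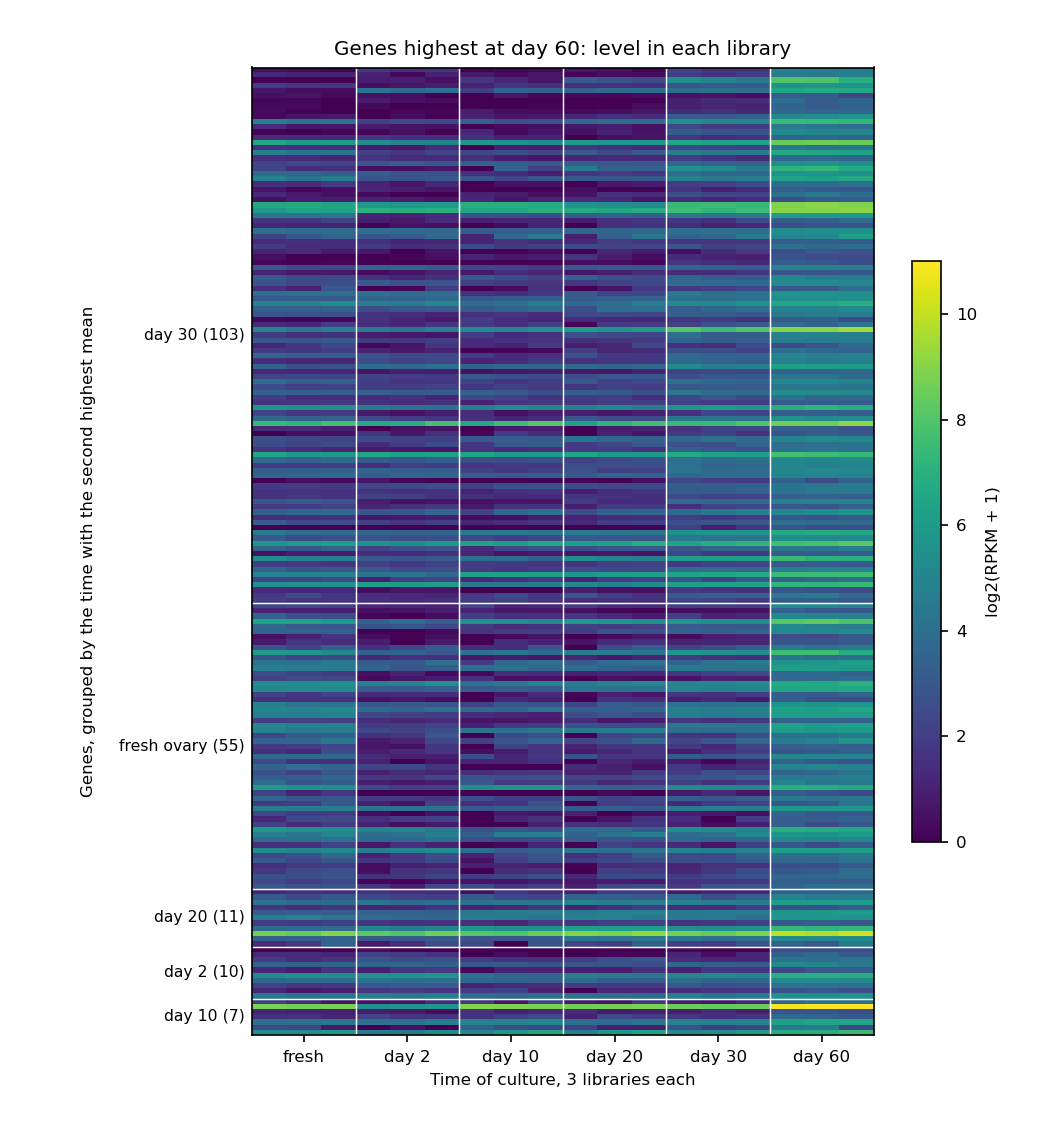
Level of the 186 genes in the 18 libraries as log2(RPKM + 1), with genes in rows, grouped by the time with the second highest mean, and the number of genes in brackets. Levels were low from day 2 to day 20 in most genes, with medians of 2.46 to 3.25 RPKM, and 7.12 RPKM at day 30.

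The times before day 60 entered the choice of genes through their highest mean, so tests among these 5 times are not fully free of the rule. The limma test was run on log2(RPKM + 1) for all 18153 genes with at least 1 RPKM in 3 or more libraries. Genes with a p under 0.05, after Benjamini-Hochberg adjustment over all of them, are called here. All 186 genes were tested, 6 of which passed the filter only through their day 60 libraries. Variation over the 5 earlier times was called for 144 of the 186, or 77.4%, and for 88.3% of all genes tested. The rule capped the highest of these means, and the 186 include the 6 just named, so nothing is read from these shares. The shares of each comparison below carry the same limits and are descriptions. Of the 104 genes called higher at day 30 than at day 20, 74 were among the 103 with their highest earlier mean at day 30. Of the 80 called lower at day 2 than in fresh ovaries, 39 were among the 55 with that mean in fresh ovaries.

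Between day 20 and day 30, 109 of the 186 genes were called, or 58.6%, against 55.1% of all genes tested. At day 30, 104 of the 186 genes were higher than at day 20, or 55.9%, where 38.1% of all genes tested were. Lower at day 30 were 5, or 2.69%, against 16.9% of all genes. With the replicate number as a block, 120 genes were called higher and 8 lower, where 44.7% and 19.2% of all genes tested were. Without the block and without replicate 2 of day 30, the lower ones were 3. The median log2 difference was 0.72 over the set and 0.24 over all genes tested. As deposited, the level of all genes was thus shifted upwards, and under median-ratio scaling the median of all genes was 0.02 and that of the set 0.49. The set stood 0.48 above the median of all genes as deposited and 0.47 under median-ratio scaling. With that scaling 89 genes of the set were higher, or 47.8%, against 22.7% of all genes, and 11 were lower, where 23.8% of all genes were. Called rises of at least 2-fold were found in 64 of the 186 genes and in 9.11% of all genes tested.

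Csa2G034530 and Csa4G006130 rose most between these times. Csa2G034530 stood at 0.429, 1.03 and 0.534 RPKM at day 20 and at 8.59, 6.51 and 6.24 at day 30, a log2 difference of 2.29 (SE 0.21, adjusted p = 2.46e-07). At day 60 it was at 37.9, 31.8 and 31.6 RPKM. Csa4G006130 stood at 2.89, 1.46 and 1.68 RPKM at day 20 and at 12.96, 12.5 and 12.7 at day 30, a log2 difference of 2.21 (SE 0.15, adjusted p = 5.37e-09). It had been at 7.29, 8.26 and 6.31 RPKM in fresh ovaries and at 0.763, 0.395 and 0.520 at day 2. Both genes had libraries of day 30 that did not overlap those of day 20.

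Among the 5 genes that fell from day 20 to day 30, Csa3G135080 went from 2.84, 5.41 and 7.14 RPKM to 1.61, 1.26 and 1.24 (log2 difference -1.31, SE 0.21, adjusted p = 8.62e-05), before 18.3, 14.96 and 18.1 RPKM at day 60. Csa7G379090 went from 1.97, 1.62 and 2.42 to 1.06, 0.267 and 0.896 RPKM (log2 difference -0.81, adjusted p = 0.0318). The latter call was lost without replicate 2 of day 30 (-0.60, adjusted p = 0.142), without replicate 1 of day 20 (-0.81, adjusted p = 0.0608) or without its replicate 3 (-0.71, adjusted p = 0.0950). It was also lost with pseudocounts of 0.1 (-1.47, adjusted p = 0.106) and 5 (-0.29, adjusted p = 0.0593), without replicate 3 of every time (-0.79, adjusted p = 0.108) and with voom (-1.50, adjusted p = 0.107). The most abundant gene, Csa6G517220, was also among the 5, with a log2 difference of -0.23 (SE 0.09, adjusted p = 0.0362) against a median of 0.24 for all genes.

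Between fresh ovaries and day 2, 100 genes of the set were called, or 53.8%, against 63.4% of all genes tested. Of the set, 80 genes fell, or 43.0%, against 32.3% of all genes tested, and 20 rose, or 10.8%, against 31.1%. The median log2 difference was -0.50 over the set and -0.02 over all genes. Called falls of at least 2-fold were found in 48 of the 186 genes and in 13.4% of all genes tested. Csa6G361410 fell most, from 58.5, 48.2 and 43.1 RPKM to 4.58, 3.15 and 3.45 (log2 difference -3.43, SE 0.13, adjusted p = 3.18e-12). Csa2G298280 fell from 10.8, 10.2 and 9.72 RPKM to 0, 0.0264 and 0.223 (log2 difference -3.38, SE 0.16, adjusted p = 6.63e-11), where the library at 0 allows up to 0.0551 RPKM. The largest rises were those of Csa6G500540, given above (log2 difference 3.49, SE 0.28, adjusted p = 2.03e-08), and of Csa5G160210, from 0.312, 0.199 and 0.0704 to 2.68, 1.90 and 2.37 RPKM (log2 difference 1.47, SE 0.17, adjusted p = 1.50e-06). Of the 80 genes that fell by day 2, 55 rose from day 20 to day 30, which is 68.8% of the former and 52.9% of the 104 that rose then. Over all genes tested, 2444 of the 5867 that fell by day 2 rose from day 20 to day 30, or 41.7%, beside the 38.1% and, within the set, 55.9% that rose then at all. Of the 20 genes of the set that rose by day 2, 15 also rose from day 20 to day 30, or 75%. Over all genes tested, 2097 of the 5650 that rose by day 2 did so, or 37.1%. The later rise was thus not confined to genes that fell by day 2. The comparisons of day 2 with fresh ovaries and of day 30 with day 20 have no library in common. They share each gene's estimate of the spread, since all 18 libraries were in 1 fit. The overlaps are therefore descriptions.

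Between day 2 and day 10, 85 genes of the set were called, or 45.7%, against 53.8% of all genes tested. Higher at day 10 were 43 genes, or 23.1%, and lower 42, or 22.6%, against 21.9% and 31.9% of all genes tested. Under median-ratio scaling 48 were higher, or 25.8%, and 40 lower, or 21.5%, against 25.6% and 26.65% of all genes. Csa6G361410 rose back to 43.7, 50.3 and 50.3 RPKM (log2 difference 3.39, SE 0.13, adjusted p = 6.19e-12), and Csa6G517220 rose from 44.9, 51.1 and 52.0 to 505, 461 and 436 RPKM (log2 difference 3.22, SE 0.09, adjusted p = 1.39e-13). Csa1G042820 fell from 17.2, 14.1 and 14.4 to 2.04, 1.70 and 2.25 RPKM (log2 difference -2.44, SE 0.18, adjusted p = 1.23e-08). Csa3G634350 fell from 3.78, 4.50 and 2.28 RPKM to 0, 0 and 0.0100, on 1 read in the 3 libraries (log2 difference -2.14, SE 0.23, adjusted p = 1.29e-06). The libraries at 0 allow up to 0.0550 and 0.0747 RPKM.

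Between day 10 and day 20, 49 genes of the set were called, or 26.3%, against 30.9% of all genes tested. Higher at day 20 were 41 genes, or 22.0%, against 16.4% of all genes tested, and lower 8, or 4.30%, against 14.5%. Fitted on the 6 libraries of these times alone, 27 genes of the set were higher and 3 lower, where 9.56% and 7.59% of all genes tested were. Csa1G568500 rose (log2 difference 1.61, SE 0.32, adjusted p = 0.00118), a call that voom on the recovered reads did not make (log2 difference 2.42, adjusted p = 0.107). Csa7G018830 had the largest difference, from 0, 10.4 and 3.20 RPKM to 21.2, 9.12 and 9.01 (log2 difference 1.85, SE 0.60, adjusted p = 0.0276), but the libraries overlapped. Without replicate 1 of day 10 its log2 difference was 0.92 (adjusted p = 0.124) and without replicate 1 of day 20 it was 1.47 (adjusted p = 0.109), and these are the pair with few genes at 1 read. With both libraries kept, the call was also lost without replicate 3 of every time (2.15, adjusted p = 0.111), in the fit of these times alone (1.85, adjusted p = 0.190), with a pseudocount of 0.1 (3.01, adjusted p = 0.0507) and with voom on the recovered reads (2.69, adjusted p = 0.0762). Csa6G361410 fell to 11.2, 10.8 and 10.6 RPKM (log2 difference -2.04, SE 0.13, adjusted p = 7.56e-09), and Csa1G073900 fell from 121.1, 116.3 and 108.3 to 50.1, 42.4 and 36.0 (log2 difference -1.42, SE 0.11, adjusted p = 7.85e-08).

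Csa6G361410 and Csa1G073900 shared an up-and-down course, low at day 2 and day 20 and higher at the times between. At day 30 Csa6G361410 stood at 39.2, 36.3 and 31.7 RPKM and at day 60 at 121.3, 115.6 and 101.0 RPKM. Csa1G073900 stood at 162.7, 178.4 and 161.1 RPKM at day 30. Means that were lower at day 2, higher at day 10, lower at day 20 and higher at day 30 were found in 29 of the 186 genes, or 15.6%, and in 10.5% of all genes tested. A mean that was higher at day 20 than at day 10 and higher again at day 30 was more frequent, in 111 of the 186, or 59.7%, against 29.7% of all genes tested. Under median-ratio scaling these last shares were 54.8% and 24.5%.

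Day 30 was also set against fresh ovaries, where 92 genes of the set were called, or 49.5%, against 62.2% of all genes tested. Higher at day 30 were 74 of the 186 genes, or 39.8%, close to the 35.8% of all genes tested, and lower were 18, or 9.68%, against 26.4%. The median log2 difference was 0.20 over the set and 0.10 over all genes. Csa1G568500 rose most, with a log2 difference of 4.95 (SE 0.32, adjusted p = 2.28e-09), followed by Csa6G500540 with 3.56 (SE 0.28, adjusted p = 1.68e-08). Csa3G634350 was lower at day 30, at 2.30, 1.15 and 1.75 RPKM against 10.5, 15.4 and 11.5 in fresh ovaries (log2 difference -2.30, SE 0.23, adjusted p = 4.10e-07). Csa2G361690 was at 0.407, 0.988 and 0.871 RPKM against 3.55, 4.97 and 4.25 (log2 difference -1.59, SE 0.24, adjusted p = 3.01e-05). The latter pair stood at 30.6, 33.8 and 27.0 RPKM and at 12.7, 12.5 and 13.5 RPKM at day 60, so day 30 was far from day 60 in both. This comparison shares its libraries with others given here, so the counts are set side by side only.

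**Figure D4:**
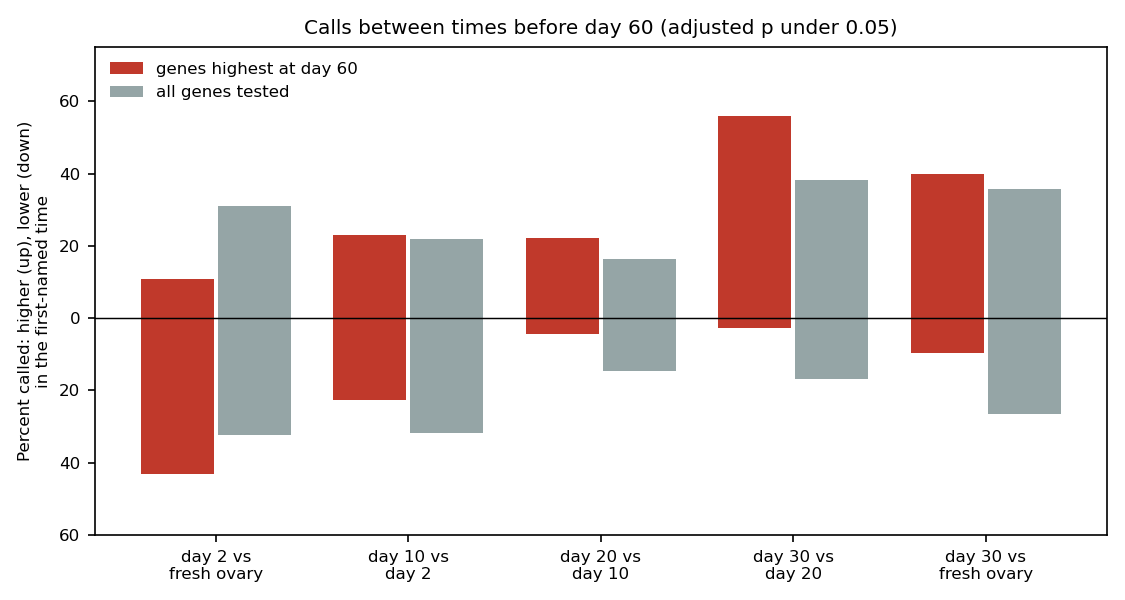
Percent of the 186 genes (red) and of all 18153 genes tested (grey) called higher (above 0) or lower (below 0) in the first-named time of each comparison, with an adjusted p under 0.05. At day 30 against day 20, 55.9% of the set was higher against 38.1% of all genes, and at day 2 against fresh ovaries 10.8% against 31.1%.

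The coefficient of variation (SD over mean, n = 3) had a median of 0.121 over the 186 genes and of 0.0799 over the 11307 genes with a day 60 mean of at least 5 RPKM. It was over 0.3 for 18 of the 186 and highest for Csa1G575060, at 0.643, Csa5G165240, at 0.589, and Csa4G083580, at 0.564. The choice of genes used these libraries, so the values are a description. Replicate 3 lay farthest from the other 2 libraries for 49.5% of the set and for 46.4% of the genes with at least 5 RPKM. It was the highest of the day 60 libraries for 70 genes and the lowest for 75. Csa4G083580 stood at 4.57, 6.12 and 12.9 RPKM, and 2.70 RPKM was its highest mean elsewhere.

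For some genes this difference of replicate 3 was not particular to day 60. In 29 of the 186 genes, or 15.6%, replicate 3 was the highest library at all 6 times, as in 9.98% of all genes tested. In 6 genes, or 3.23%, it was the lowest at all 6 times, against 7.21% of all genes tested. Csa1G063540 is an example of the former, at 163, 146 and 211 RPKM in fresh ovaries, 163, 169 and 254 at day 30 and 388.5, 387.3 and 540.4 at day 60. Since replicate 3 was also the deepest library at every time, its depth and any other property of these libraries cannot be told apart. Without the replicate 3 libraries the rule was met by 198 genes, and 176 of the 186 were among them.

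The length behind the RPKM values had a median of 1722.5 bases over the 186 genes, with quartiles of 996 and 2661, and of 2867 bases over all genes tested. The sources used here do not say whether introns are part of it. The genes had between 224 and 401165 reads in the day 60 libraries together, with a median of 6067.5.

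The files give no positions, so only the IDs could be used. By the digit after the letters, 38 of the genes had IDs with 1 and 38 with 6, 33 with 3, 21 with 5, 19 each with 2 and 4 and 17 with 7, and 1 had none. IDs with 1 made up 20.4% of the set and 14.5% of the genes in the files, IDs with 6 made up 20.4% and 16.4%, and IDs with 3 made up 17.7% and 20.4%. With at most 2 other listed IDs between, 22 genes of the set, or 11.8%, stood next to another member, always in pairs. The same rule applied to the other times gave 12.8% for day 10, 13.7% for day 30, 18.4% for day 2, 20.4% for fresh ovaries and 22.8% for day 20, with sets of other sizes.

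In 6 pairs no listed ID lay between the genes. Over the 15 libraries before day 60, r of log2(RPKM + 1) was highest in Csa1G600160 and Csa1G600170, at 0.89. It was 0.85 in Csa1G063540 and Csa1G063550 and 0.82 in Csa7G018820 and Csa7G018830, and from 0.47 to 0.79 in the other pairs. Csa7G018820 and Csa7G018830 had means of 0.452 and 2.34 RPKM in fresh ovaries and 0.107 and 0.455 at day 2. At day 30 they were at 8.75 and 36.1 RPKM and at day 60 at 44.0 and 132.0 RPKM. From day 20 to day 30 Csa7G018820 rose (log2 difference 1.87, SE 0.18, adjusted p = 3.34e-07), while Csa7G018830 had a difference of 1.46 (SE 0.60, adjusted p = 0.0505). In Csa1G408700 and Csa1G408710 both genes rose at that step, from 0.487 to 3.54 and from 4.08 to 15.04 RPKM. So did both of Csa1G600160 and Csa1G600170, from 0.767 to 3.93 and from 6.82 to 18.3 RPKM. In the pair Csa6G390120 and Csa6G390130 the courses differed, since the former was at 9.67 RPKM at day 2 and the latter at 3.17, after 5.40 and 10.7 in fresh ovaries. Csa2G351750, at 6.47 RPKM at day 60, and Csa2G351760, at 70.0 RPKM, differed most in level. Csa1G063540 and Csa1G063550 were both highest in replicate 3 at all 6 times. Whether any of these pairs share reads through like sequences was not tested.

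**Figure D5:**
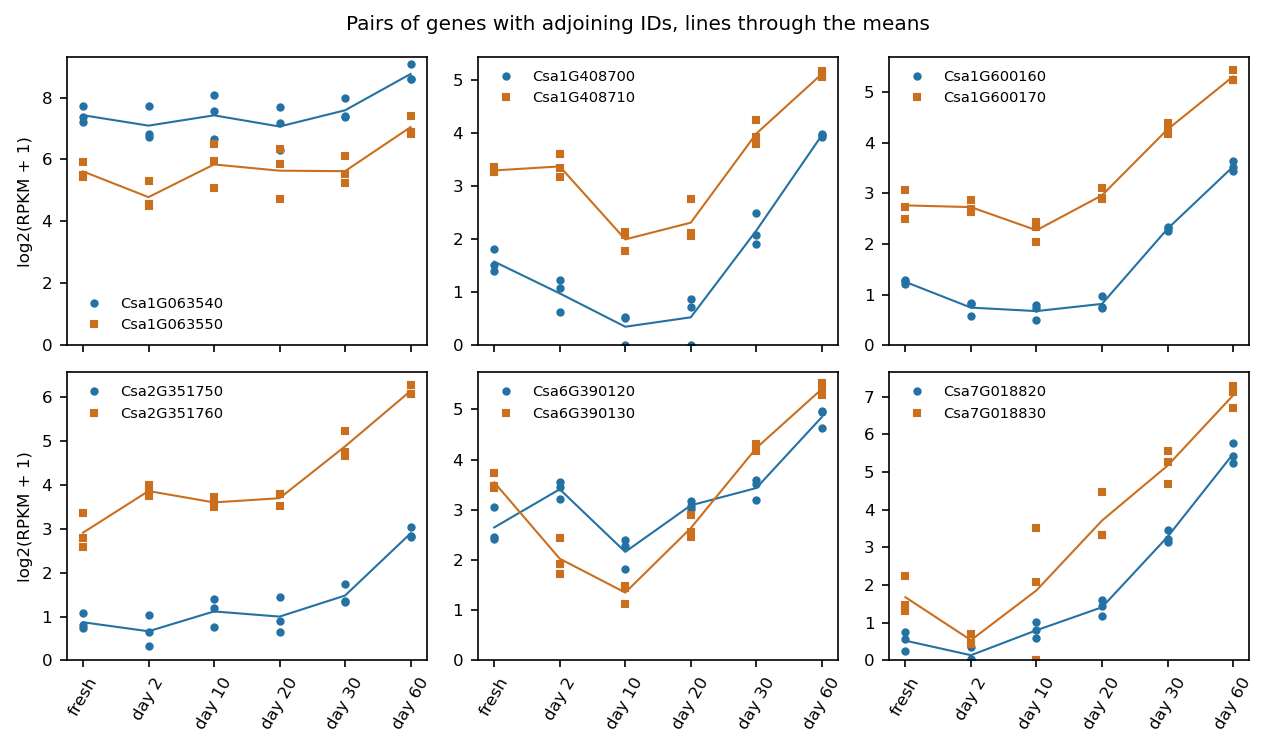
Level of the 6 pairs of chosen genes with adjoining IDs, as log2(RPKM + 1), by time of culture, with a point for each library and lines through the means of 3. Csa7G018820 and Csa7G018830 were lowest at day 2 and reached means of 44.0 and 132.0 RPKM at day 60. The mean of Csa6G390120 was above that of Csa6G390130 from day 2 to day 20 and below it at the other times.

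A neighbour was not always part of the set. Csa7G291140, which lies between the members Csa7G291130 and Csa7G291150 by ID, stood at 4.59 ± 0.549 RPKM at day 60 and at 3.75 ± 0.661 at day 30 (SD, n = 3 each), where Csa7G291130 was at 34.8 ± 5.64 and 3.35 ± 0.253. Csa6G514860, between Csa6G514850 and Csa6G514870, had its highest mean at day 2, at 8.75 ± 0.440 RPKM, and 2.71 ± 0.249 at day 60. Csa6G495070, between Csa6G495060 and Csa6G495080, was highest at day 60 too, at 33.3 ± 2.24 RPKM, but stood at 20.6 ± 1.69 at day 30 and did not meet the rule.

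The same rule was met by other numbers of genes at the other times: 412 in fresh ovaries, 315 at day 2, 164 at day 10, 272 at day 20 and 146 at day 30. Day 60, with 186, thus had fewer than fresh ovaries, day 2 and day 20 and more than day 10 and day 30. With other scalings of the libraries, the rule was met at day 60 by 178 genes (median-ratio) and by 199 (upper quartile).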

How the data were processed

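RNA of 18 libraries, 3 at each of 6 times, was sequenced as paired ends after isolation of poly(A) RNA, per the labels' protocols, whose text also speaks of adipose samples. TopHat2, TopHat and HTSeq version 0.6.1p2 are named in the submitters' processing notes, with no role given. Genome build, annotation and strand setting are named by no source used here. The authors deposited RPKM values, per the file headers, in a column for each library. For fresh ovaries a single header cell names the 3 libraries, and that order was used.

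Groups came from the time label. The members and lists were chosen with earlier results of these data known. RPKM values are not counts, so limma version 3.58.1 (R 4.3.3, trended and robust variance) was run on log2(RPKM + 1) over genes that reached 1 RPKM in 3 or more libraries, with 1 coefficient per time and all 18 libraries in 1 fit. Log2 differences on this scale understate those of low genes. Differences with day 60 were used by the rule and are given with no test. The test was also run on simulated reads, with independent libraries and the same dispersion for every gene. That setting is simpler than these data, so nothing about the reported calls is read from it.

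Reads, lengths and totals were recovered from the RPKM steps. All 21761 genes above 0 gave whole reads in every library within 0.02, and the reads summed to between 99.9995% and 99.9999% of the totals. A level behind 0 reads was bounded by 3 reads.

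Libraries with the same replicate number deviated together from their time's mean, with r across genes of 0.15 to 0.63 in the compared times. The exception was 0.08 for replicate 2 of day 2 and day 10. Replicate 3 had the highest r in each comparison, from 0.51 to 0.63. The deviations of the 3 libraries of a time cancel out, so a property of the replicate 3 libraries alone would also raise r for the others. Whether the numbers pair the libraries therefore cannot be told from these values, and the reported tests leave the pairing out. The replicate block was fitted as an alternative only. At day 2 against fresh ovaries the block gave 99 genes of the set lower and 24 higher, where 36.0% and 34.1% of all genes tested were.

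Named genes were, by rule, the 12 with the highest ratio, the 8 with the highest day 60 mean, those next to the threshold, the 2 largest called rises and falls of each comparison, the 3 with the highest day 60 variation and the runs of neighbouring IDs. Lists by gene description could not be applied because no ID matched. Others named were chosen after their values were seen. Python 3.11.15 with numpy 2.4.6, pandas 2.3.3 and matplotlib 3.10.9 served for the rest.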

Additional observations from a re-analysis of the deposited data

How the results depend on the processing

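All 385 alternatives of counts were computed, and 364 stayed within 1.5 times the reported count. The fits without replicate 1 of day 10 and day 20 and without replicate 3 of every time, and voom on the recovered reads, were chosen after seeing the data. No named gene changed direction under any alternative. Of the 879 alternatives for named genes, 847 gave the same result, 16 lost the call and another 16 shifted in value. The 879 include alternatives of the day 60 ratio, which was not tested and had no call to lose. They are therefore not the base for a share of lost calls. Asking also for a 2-fold change gave fewer by construction. At day 2 against fresh ovaries, 8 of the 186 were higher and 48 lower, where 13.1% and 13.4% of all genes tested were. At day 10 against day 2 these were 14 and 16, beside 9.95% and 9.39% of all genes. At day 20 against day 10 they were 9 and 2, beside 5.89% and 3.17%. At day 30 against day 20 they were 64 and 1, beside 9.11% and 8.21%. At day 30 against fresh ovaries they were 40 and 7, beside 15.2% and 9.99%. At day 20 against day 10, fitting only these times gave 27 higher and 3 lower, and a pseudocount of 5 gave 5 lower. At day 30 against day 20, the 5 lower genes became 11 when libraries were scaled by median ratios, 8 by upper quartiles and 8 with the replicate block; the block moved no other count by over 1.5 times. A ratio of 3 left 41 genes, and asking the lowest day 60 library for the ratio over the highest of the other 15 left 64, all of them among the 186. Leaving out 1 library gave 3 to 6 genes lower at day 30 against day 20, with 3 without replicate 2 of day 30. It gave 176 to 201 genes by the rule, and 159 of the 186 still met it without replicate 3 of day 60, the lowest number. Depth limits genes of few reads, and 50 of the 186 had 0 reads in some libraries. The zeros did not follow depth alone. Replicate 1 of day 10, with 23.2 M reads, had 17653 genes above 0, where replicate 2 of day 2, with 21.8 M, had 19268. Csa7G018830 and Csa6G031950 had 0 reads in that day 10 library and 117 and 81 in replicate 2 of day 10. The reason was not tested.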
